A study of Mus musculus with 12 samples.

Results

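Red blood cell transcripts were followed through 5 genes in the mouse hypothalamus: the alpha globin gene Hba-a1, the beta globin genes Hbb-bs, Hbb-bt and Hbb-b2, and Alas2, which encodes the first enzyme of heme synthesis in erythroid cells. Every probe that the gene table gave to 1 of these genes was taken. That table covers the 20791 probes of the authors' processed values, so a probe of these genes among the rest of the 45281 on the array would be missed. A probe counted as measured when its detection p-value was under 0.01 on at least 3 of the 12 arrays. This gave 13 probes: 6 for Hbb-bs, 4 for Hbb-bt and 1 each for Hba-a1, Hbb-b2 and Alas2. All 13 were measured, and each was detected on all 12 arrays.

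Total RNA came from 12 FVB/NJ-Jax mice, an inbred strain, at postnatal day 180, with 1 Illumina bead array per mouse. The groups were female control, female small litter, male control and male small litter, with 3 mice in each, numbered as biological replicates. A small litter leaves more milk for each pup and is used to overfeed mice before weaning. The sources used here give neither the litter sizes nor whether blood was flushed from the vessels before the tissue was taken.

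Haemoglobin is built from a pair of alpha and a pair of beta globin chains, each of which holds a heme group that binds oxygen. The genes are transcribed in erythroid precursors of the bone marrow, and young red cells, the reticulocytes, carry the remaining globin RNA into the circulation after they have lost the nucleus. Brain tissue therefore contains globin RNA from blood in its vessels, and globin RNA has also been described in some neurons and glial cells. Alas2 joins glycine and succinyl-CoA in erythroid mitochondria, while its relative Alas1 serves the other tissues.

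The label was set against markers of the cell type. Of 11 red cell markers, the 5 genes described here were measured, 1 was not measured, and 5 others had no probe under their own name in the gene table, so the name of the set rests on the globins and Alas2 alone. Little can be said of other blood cells: 17 of 19 white cell markers and 4 of 8 platelet markers had no named probe either. The measured ones, 2 and 3 genes, had summed levels (the sum of the normalized intensities on a linear scale) of 60 to 249 and 105 to 144 over all arrays. Of 17 hypothalamic markers, 13 were measured, with summed levels of 33783 to 48292 over the 12 arrays.

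The arrays differed in brightness along the lines of the groups. The 6 arrays of females had a median signal of 112 to 127 and the 6 of males 103 to 108, without overlap, and among females it was 121 to 127 in control and 112 to 118 in small-litter mice. Group and brightness therefore cannot be told apart in a sex comparison or in the litter comparison of females, and all tested values were normalized between arrays before comparison. In addition, the meningeal marker genes stood high on female control array 3 and male control array 2, and male small-litter arrays 2 and 3 lay apart from the others on the first principal component.

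Most globin probes read far above the median signal of the arrays. The Hba-a1 probe (ILMN_1212702) read 12533, 7991 and 11635 in the female controls and 8630, 8912 and 7390 in the female small-litter mice, in units of raw bead intensity. In males the same probe read 6226, 11130 and 10615 in controls and 8344, 7274 and 8090 in small-litter mice. The lowest array of all was male control 1 and the highest female control 1, and the 4 groups overlapped. After background correction and quantile normalization, the log2 level of Hba-a1 was 13.27 ± 0.32 (SD, n = 3) in female controls, 13.06 ± 0.19 in female small-litter mice, 13.07 ± 0.44 in male controls and 13.01 ± 0.12 in male small-litter mice. The order of these 4 means has no weight, since the steps between neighbours were smaller than the SDs.

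The adult beta globin genes stand in a cluster and come in haplotypes. Hbb-bs and Hbb-bt are the adult genes of the haplotype called single, and Hbb-b1 and Hbb-b2 those of the haplotype called diffuse. The haplotype of these mice is not given in the sources used here. A mouse of an inbred strain carries the same haplotype on both chromosomes, so Hbb-bs, Hbb-bt and Hbb-b2 cannot all be genes of these mice. Some of these probes must therefore read transcripts of a gene other than the annotated one. The sequences of the probes were not used, so which of these near-identical transcripts each beta globin probe binds is uncertain, and the probes are described under the gene that the annotation gives.

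The most intense Hbb-bt probe (ILMN_1236718) read 15680, 11038 and 14611 in female controls and 10584, 11204 and 8834 in female small-litter mice. In males it read 6323, 11469 and 10337 in controls and 8552, 8369 and 8165 in small-litter mice. Female controls held the highest readings and male control 1 the lowest, with overlap between groups. On the log2 scale the group means were 13.63 ± 0.22, 13.36 ± 0.23, 13.09 ± 0.42 and 13.10 ± 0.11 in the same order of groups. The Hbb-bt probes ILMN_1216452 and ILMN_1239117 ranged from 11.95 to 13.17 and from 11.53 to 12.78 over all arrays. The probe ILMN_1235372 was far dimmer, with raw readings of 126 to 201 and log2 levels of 5.44 to 6.50. The 4 Hbb-bt probes thus gave very unequal brightness for 1 annotated gene, and levels of different probes cannot be set against each other.

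The most intense Hbb-bs probe (ILMN_1229203) read 14706, 10097 and 12401 in female controls, 9063, 11094 and 8177 in female small-litter mice, 6238, 12499 and 10291 in male controls, and 8540, 8084 and 8507 in male small-litter mice. Its log2 group means were 13.50 ± 0.21, 13.24 ± 0.28, 13.12 ± 0.50 and 13.10 ± 0.13 in that order. The groups overlapped. The dimmest Hbb-bs probe (ILMN_1255462) read 2868, 1756 and 2697 in female controls and 1475, 1667 and 1251 in female small-litter mice. In males it read 1005, 1423 and 1498 in controls and 1451, 1218 and 1278 in small-litter mice. All 3 female controls lay above all 6 males in these readings. Its log2 group means were 11.07 ± 0.37, 10.45 ± 0.28, 10.17 ± 0.29 and 10.39 ± 0.10. The other 4 Hbb-bs probes ranged over all arrays from 12.64 to 13.64 (ILMN_1223244), 12.38 to 13.49 (ILMN_1244316), 12.37 to 13.42 (ILMN_2545963) and 10.62 to 11.77 (ILMN_2544056).

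Hbb-b2 (ILMN_2729513) had the widest spread of the set. It read 1060, 627 and 735 in female controls and 509, 575 and 452 in female small-litter mice. In males it read 324, 392 and 456 in controls and 402, 357 and 366 in small-litter mice. After normalization its log2 levels were 9.75, 8.98 and 9.25 in female controls, 8.73, 9.03 and 8.48 in female small-litter mice, 7.92, 8.21 and 8.43 in male controls and 8.23, 8.30 and 8.42 in male small-litter mice. Every female lay above every male on this scale, narrowly at 8.48 against 8.43, while the raw readings of 452 and 456 crossed. The group means fell in the order female control (9.33 ± 0.39), female small litter (8.74 ± 0.28), male small litter (8.32 ± 0.10) and male control (8.19 ± 0.25). The male groups overlapped, and their means differed by less than the SD of the male controls.

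Alas2 (ILMN_2675874) was dim, with readings not far above the median signal of the arrays. It read 199, 156 and 196 in female controls and 160, 154 and 135 in female small-litter mice. In males it read 140, 186 and 195 in controls and 148, 136 and 150 in small-litter mice. Its log2 group means were 6.27 ± 0.40, 5.83 ± 0.46, 6.40 ± 0.48 and 6.08 ± 0.22, and all 4 groups overlapped. Alas1 (ILMN_2664040), the enzyme of the other tissues, ranged by 0.33 on the log2 scale over the 12 arrays, from 10.71 to 11.03, against a range of 1.41 for Alas2. Alas1 was far brighter, with raw readings of 1444 to 2262. The range of a dim probe such as Alas2 depends more on the background correction, so the 2 ranges are not alike.

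**Figure D1:**
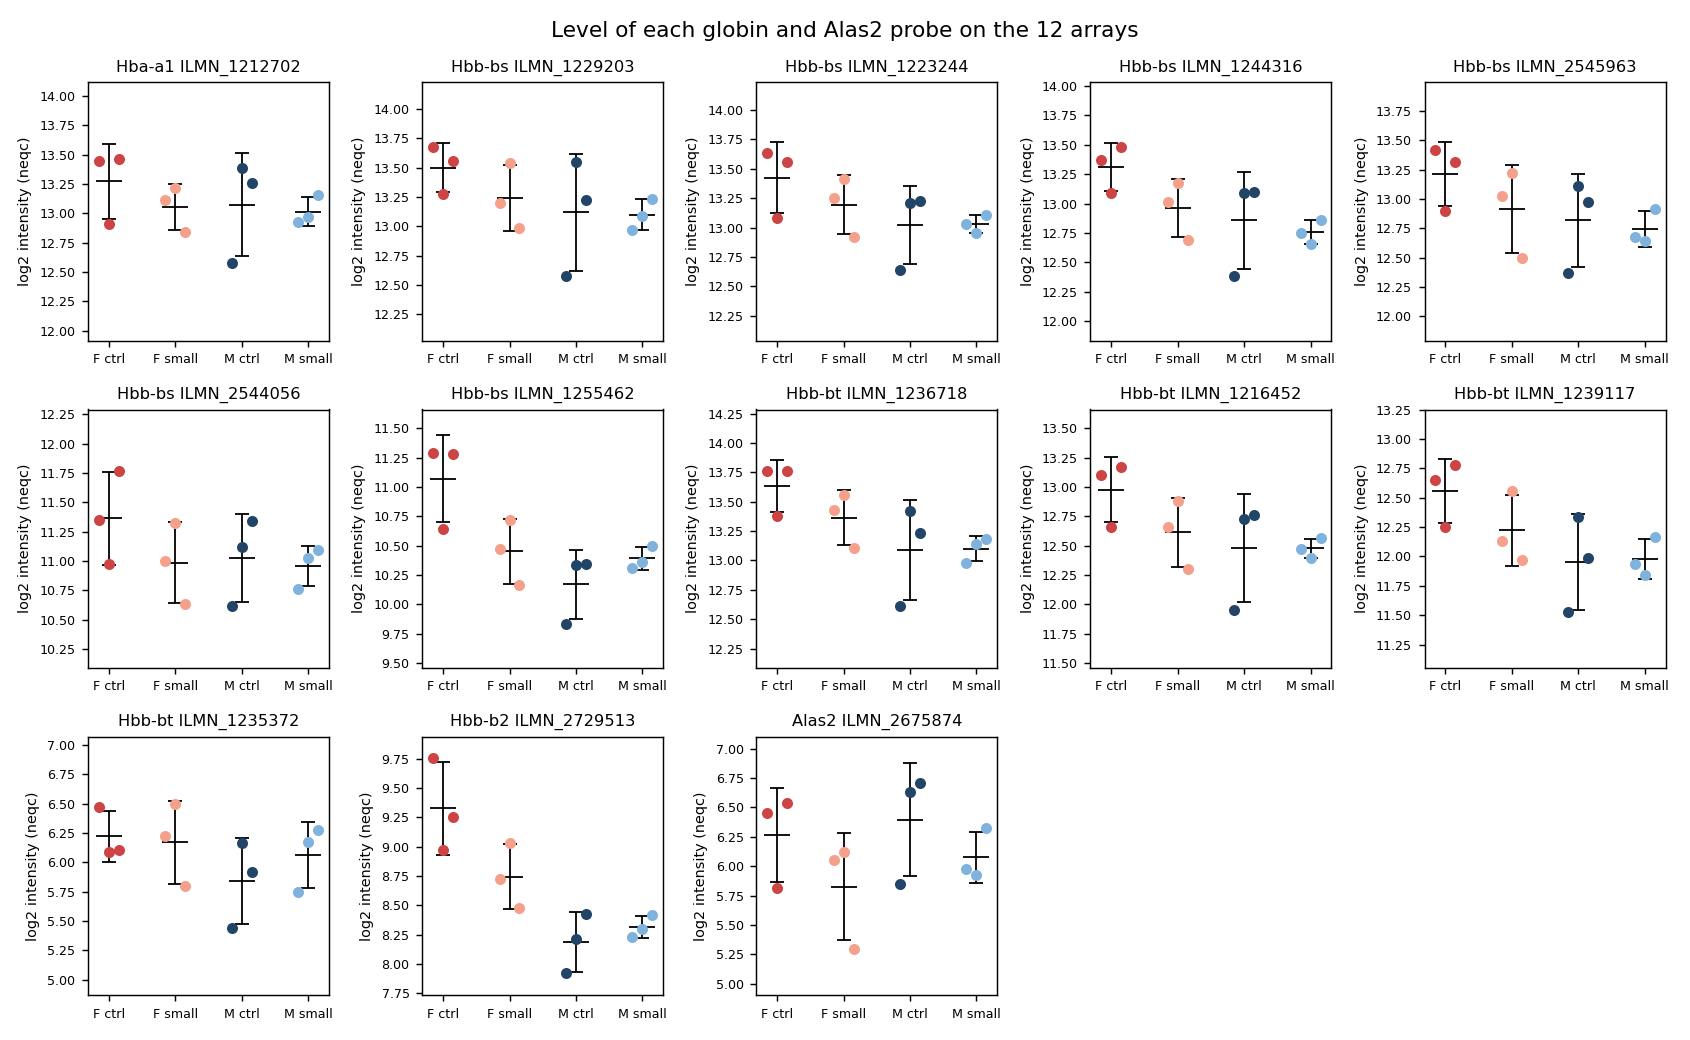
Normalized log2 intensity of each of the 13 probes in female control (F ctrl), female small-litter (F small), male control (M ctrl) and male small-litter (M small) mice, with 1 point per array and lines for the mean and SD of 3 mice; each panel spans the same height on its own axis. Hbb-b2 lies at 8.48 to 9.75 in females and 7.92 to 8.43 in males, while the groups of Hba-a1 and Alas2 overlap.

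The 13 probes rose and fell together from mouse to mouse. Their first principal component held 81.8% of their variance over the 12 arrays, and the 78 pairs of probes had correlations from 0.25 to 0.99 with a median of 0.87. Probes annotated to 1 gene, or to near-identical globins, can bind the same RNA and are not independent of each other. On the normalized scale the ratio of the highest to the lowest array was 1.85 for Hba-a1, 2.66 for Alas2 and 3.55 for Hbb-b2. The raw readings of the dim Alas2 probe spanned only 135 to 199, against 6226 to 12533 for Hba-a1. The ratio of Alas2 therefore depends on the background correction, and in raw readings Alas2 varied less than Hba-a1.

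A mean deviation was taken for each array, as the average over the 13 probes of the log2 level minus that probe's mean over 12 arrays. It was 0.49, 0.00 and 0.47 in female controls and 0.02, 0.25 and -0.33 in female small-litter mice. In male controls it was -0.59, 0.10 and 0.04, and in male small-litter mice -0.25, -0.19 and -0.02. On female control arrays 1 and 3 all 13 probes stood above their own mean, and on female small-litter array 3, male control array 1 and male small-litter array 1 none did. The gap between mice of 1 group reached 0.69 among male controls, 0.58 among female small-litter mice and 0.49 among female controls, against 0.23 among male small-litter mice. In whole tissue, fewer red cells and less RNA per cell cannot be told apart.

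**Figure D2:**
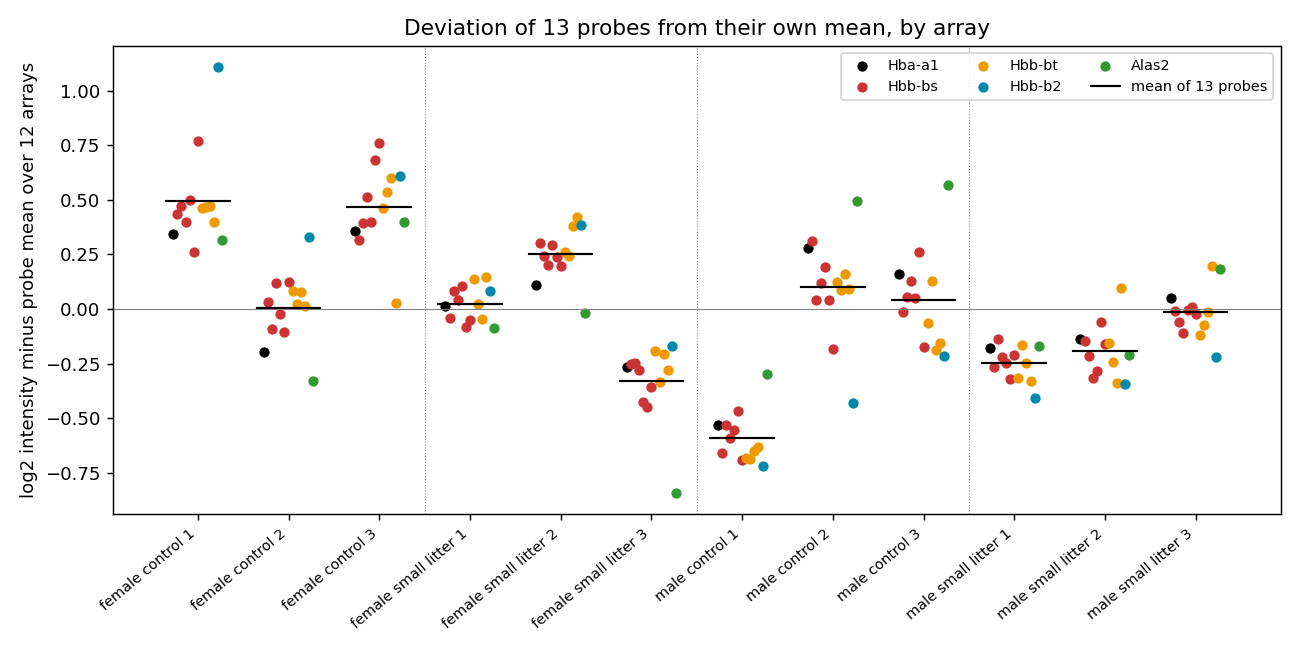
Deviation of each of the 13 probes from its own mean over 12 arrays, on the log2 scale, by array, with a black bar for the mean of the 13. Female controls 1 and 3 stand at 0.49 and 0.47 and male control 1 at -0.59, and Alas2 (green) departs from the globins on several arrays.

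Genes were then compared by their most intense probe, across mice. Hba-a1 and Hbb-bs correlated with Pearson r = 0.92 over 12 arrays (permutation p = 4e-05, adjusted over 6 pairs 0.00012; Spearman rho = 0.85, permutation p = 0.00081, adjusted 0.00162). Without the 2 arrays farthest from the median of Hba-a1, r was 0.86. Hba-a1 and Hbb-bt gave r = 0.87 (adjusted permutation p = 0.00048; rho = 0.82, adjusted 0.00262), and r = 0.72 without the 2 farthest arrays. Alpha and beta globin RNA, from genes on different chromosomes, thus varied together between mice.

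Alas2 was also compared with each globin gene. With Hba-a1 it gave r = 0.81 (adjusted permutation p = 0.00229; rho = 0.90, adjusted 0.0006), and r = 0.87 without the 2 farthest arrays. With Hbb-bs r was 0.62 (adjusted 0.0366; rho = 0.63, adjusted 0.0395), and with Hbb-bt 0.50, which did not pass (permutation p = 0.0955; rho = 0.57, p = 0.0573). Within the sexes Alas2 gave r = 0.95 in females and 0.90 in males with Hba-a1, and 0.99 and 0.79 with Hbb-bt. Of these the 0.79 did not pass (exact permutation p = 0.0403, adjusted over 20 pairs 0.0537), while its rho of 0.89 did (adjusted 0.0444). Within sexes, exact permutation tests over 6 mice were made for 20 pairs of genes. Their r was 0.83 to 0.99 among females and 0.58 to 0.99 among males, and 9 of 10 female and 5 of 10 male pairs passed after adjustment over the 20. Each test took control and small-litter mice together, so a difference between the litter groups can enter r. The pooled tests took all groups together in the same way. Hbb-b2 was given no pooled value because the sexes separated. Its correlation r with the other genes lay between 0.83 and 0.92 in females, and among males it was 0.58 to 0.74 with none past the adjusted threshold.

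The stretches just upstream of these genes are shown because the genes are known targets of the same erythroid factors. Whether these stretches bear on the shared variation between mice was not tested. GATA1 binds GATA motifs, KLF1 binds CACCC boxes, and the CCAAT and TATA boxes are general promoter elements. RefSeq promoter sequences (build GRCm38.p6) matched 4 of the 5 genes, and Hbb-b2 is named only. The runs are those of the reference build and were not read from these mice, whose beta globin haplotype is not given. Each run below is the 250 bases before the transcription start, read from 5′ to 3′ on the strand of the gene, and capitals mark every match on either strand to the TATA box (searched as TATAA), the CCAAT box, the CACCC box and the GATA motif (searched as GATAA).
Hba-a1, chr11:32283422-32283671, plus strand: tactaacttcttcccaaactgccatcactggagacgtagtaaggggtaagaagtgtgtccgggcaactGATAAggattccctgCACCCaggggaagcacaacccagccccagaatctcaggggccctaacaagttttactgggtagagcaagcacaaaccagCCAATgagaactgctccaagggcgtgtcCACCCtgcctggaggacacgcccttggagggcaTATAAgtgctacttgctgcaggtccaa
Hbb-bs, chr7:103827929-103828178, minus strand: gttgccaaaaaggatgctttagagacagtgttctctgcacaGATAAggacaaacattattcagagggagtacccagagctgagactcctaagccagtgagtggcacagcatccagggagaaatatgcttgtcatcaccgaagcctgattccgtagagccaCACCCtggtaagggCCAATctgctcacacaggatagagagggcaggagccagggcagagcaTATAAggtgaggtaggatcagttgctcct
Hbb-bt, chr7:103813924-103814173, minus strand: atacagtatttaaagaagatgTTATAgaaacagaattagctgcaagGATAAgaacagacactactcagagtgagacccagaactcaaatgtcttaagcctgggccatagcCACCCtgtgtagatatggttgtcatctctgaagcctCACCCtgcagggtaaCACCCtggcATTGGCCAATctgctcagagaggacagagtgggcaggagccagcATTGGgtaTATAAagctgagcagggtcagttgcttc
Alas2, chrX:150547167-150547416, plus strand: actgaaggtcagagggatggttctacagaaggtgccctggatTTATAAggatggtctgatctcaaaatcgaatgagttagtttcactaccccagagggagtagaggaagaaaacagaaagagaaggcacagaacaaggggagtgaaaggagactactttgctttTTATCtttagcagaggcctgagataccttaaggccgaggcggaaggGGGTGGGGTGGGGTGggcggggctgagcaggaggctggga

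In all 3 globin promoters a GATA motif, a CACCC box, a CCAAT box and a TATA box followed each other in this order on the strand of the gene. In Hba-a1 their first bases stood 182, 167, 88 and 27 bases before the start, with another CACCC at 60. In Hbb-bs they stood at 209, 90, 76 and 29, with 1 copy of each. Hbb-bt held GATAA at 204, 3 copies of CACCC at 140, 104 and 89, CCAAT at 75 and TATAA at 28, and further matches to CCAAT and TATAA on the other strand, 1 of which abuts the CCAAT at 75. Alas2 held no CCAAT, 3 copies of CACCC on the other strand within 40 bases of the start, a GATAA on the other strand at 86, and a TATAA at 207 that overlaps a match on the other strand. These short motifs are common: TATAA was found in 22.8% of all 32851 promoter windows of the same length, CCAAT in 33.8%, CACCC in 52.0% and GATAA in 22.6%. A match is a description of the letters. The windows of Hba-a1 and its duplicate Hba-a2 shared an identical run of 247 of the 250 bases.

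The first comparison asked whether growing up in a small litter changed these transcripts in females. All 13 probes were lower in small-litter than in control females, with a median log2 difference of -0.34, and none passed the test. Hbb-bs ILMN_1255462 had the largest difference, -0.62 ± 0.20 (SE), and Hbb-b2 the next, -0.58 ± 0.19. Hba-a1 differed by -0.22 ± 0.20 and Alas2 by -0.44 ± 0.27. Over all 19704 probes tested, the median was 0.00 and 49.2% were lower.

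With limma over all probes and Benjamini-Hochberg adjustment, the adjusted p of every member was 1, and 0 of 13 members and 0 of 19704 probes (0%) passed 0.05. At an unadjusted p under 0.05 there were 2 members, Hbb-bs ILMN_1255462 (0.00714) and Hbb-b2 (0.00981), against 689 probes (3.5%) in all. In none of the 13 did all small-litter females lie below all control females, against 4.54% of all probes. The 13 probes move together, so their shared direction is not 13 separate observations, and female controls 1 and 3 were the arrays highest in the set. The array means of the set were 0.00 to 0.49 in controls and -0.33 to 0.25 in small-litter females.

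In males no shared direction was seen. Of the 13 probes, 6 were higher and 7 lower in small-litter than in control males, with a median of 0.00 and a range from -0.32 (Alas2) to 0.22. Hba-a1 differed by -0.06 ± 0.20 and Hbb-b2 by 0.13 ± 0.19 (95% interval -0.29 to 0.55). No member passed (smallest adjusted limma p 0.642, and 0 at an unadjusted p under 0.05), nor did any of the 19704 probes (0%), of which 2462 (12.5%) had an unadjusted p under 0.05. As each array was left out, 0 to 619 of all probes passed, the 619 without male small litter 1, and no member passed. Several signs turned with single control arrays: Hba-a1 gave -0.31 without male control 1 and 0.10 without male control 2, and Hbb-bt ILMN_1236718 gave -0.23 and 0.18.

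Averaged over the sexes, 12 probes were lower and 1 higher in small-litter mice, with a median of -0.18. Alas2 differed most, by -0.38 ± 0.19 (adjusted limma p 0.839), and Hba-a1 by -0.14 ± 0.14. Again 0 of 13 members and 0 of 19704 probes (0%) passed, with 0 members and 1146 probes (5.82%) at an unadjusted p under 0.05.

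The litter effect was also set between the sexes. For each probe the interaction, the difference in females minus that in males, was negative, with a median of -0.27. It was -0.84 ± 0.28 for Hbb-bs ILMN_1255462 (limma p 0.00926, adjusted 0.468) and -0.71 ± 0.27 for Hbb-b2 (p 0.0215, adjusted 0.485). None of the 13 and none of the 19704 probes (0%) passed after adjustment, and 2 members and 1818 probes (9.23%) had an unadjusted p under 0.05. As each array was left out, 0 to 84 of all probes passed, the 84 without male small litter 1. Thus a litter effect that differs between the sexes was not shown.

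**Figure D3:**
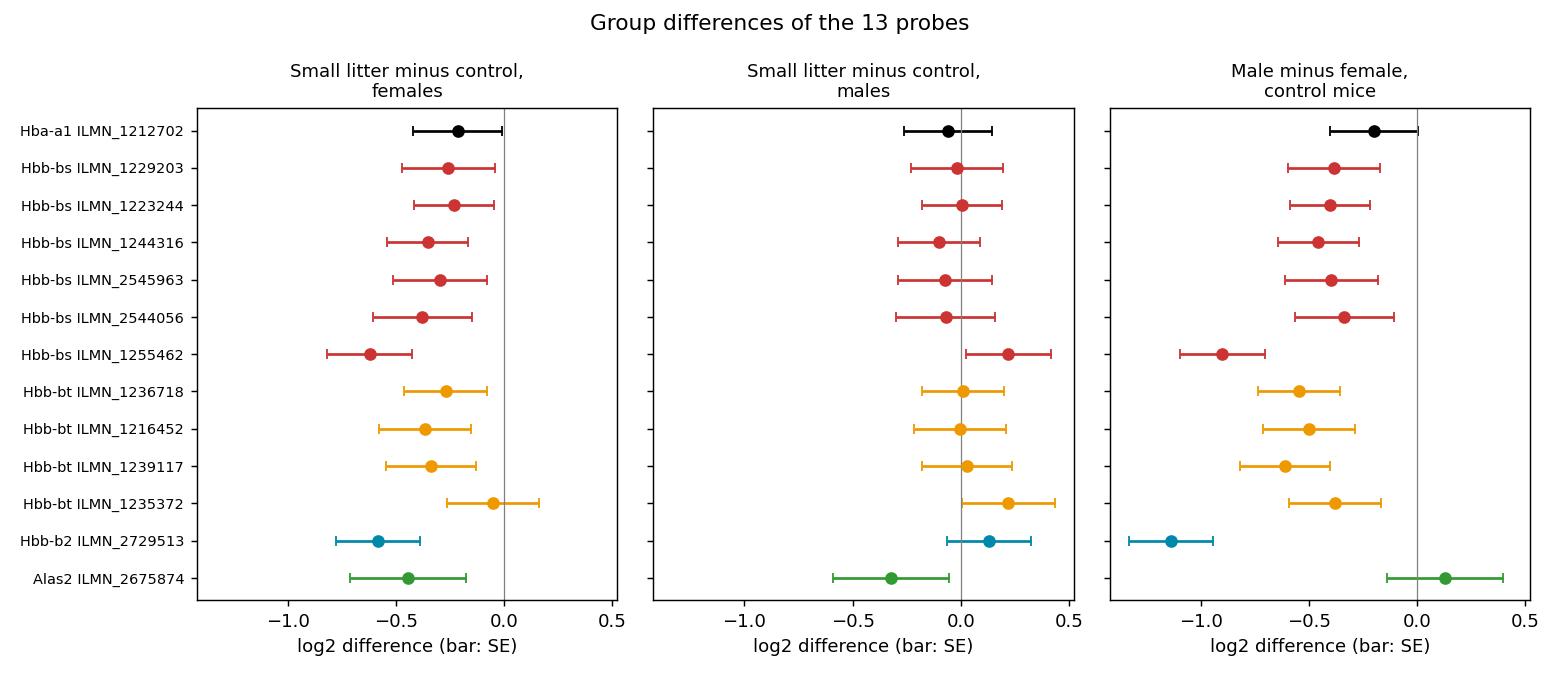
Log2 difference of each of the 13 probes, with a bar of 1 SE to each side, for small litter minus control in females (left) and males (middle) and for male minus female in control mice (right), coloured by gene. In females all points lie below 0 and reach -0.62, in males they lie on both sides of 0, and between the sexes all but Alas2 lie below 0, with Hbb-b2 farthest out at -1.14.

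The next comparison was between the sexes. In control mice 12 of 13 probes were lower in males, with a median of -0.40, and Alas2 was the exception at 0.13 ± 0.27. Hbb-b2 differed by -1.14 ± 0.19 on the log2 scale (male minus female, 95% interval -1.56 to -0.72), a ratio of 2.20 between females and males. Hbb-bs ILMN_1255462 differed by -0.90 ± 0.20, the 3 brighter Hbb-bt probes by -0.50 to -0.61, and Hba-a1 by -0.20 ± 0.20.

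For Hbb-b2 the adjusted limma p was 0.0535, just outside the threshold, and for ILMN_1255462 it was 0.12. Thus 0 of 13 members passed, against 15 of 19704 probes (0.0761%), which included the sex-linked Xist, Kdm5d, Eif2s3y and Uty as a check of the sex labels. At an unadjusted p under 0.05 there were 7 members against 12.7% of all probes. In 2 members, ILMN_1255462 and Hbb-b2, all control males lay below all control females, against 8.46% of all probes. The position of Hbb-b2 against the threshold depends on the processing: without female control 2 the difference was -1.31 with an adjusted p of 0.0336, and with an offset of 50 in place of 16 it was -1.05 with 0.00589. It lay farther outside with the compared arrays alone in the fit (adjusted p 0.194), without male control 1 (0.148) and without the 2 arrays with high meningeal levels (-1.19, 0.22).

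Averaged over the litters, a comparison added after the values were seen, Hbb-b2 was lower in males. The difference was -0.78 ± 0.14 (95% interval -1.08 to -0.49, a 1.72-fold lower level), with males lower without overlap over 6 mice of each sex, and the adjusted limma p was 0.0147. It was the 1 member of 13 that passed, against 964 of 19704 probes (4.89%, and 248 to 1896 probes as each array was left out), and the 1 member whose sexes did not overlap, against 1.51% of all probes with males lower. At an unadjusted p under 0.05 there were 6 members, against 24.2% of all probes. Other members passed under other settings: Hbb-bs ILMN_1255462 without female control 2 (-0.59, adjusted p 0.0417) and under 5 processing alternatives, Hbb-bt ILMN_1236718 under 2 and Hbb-bt ILMN_1239117 under 1. Hbb-bs ILMN_1255462 differed by -0.48 ± 0.14 (adjusted p 0.0631), Hbb-bt ILMN_1236718 by -0.41 ± 0.14 (0.0926), Hba-a1 by -0.12 ± 0.14 and Alas2 by 0.19 ± 0.19. No 1 array removed the Hbb-b2 call, and its difference ranged from -0.87 to -0.68 as each array was left out. Without the 2 arrays apart on the first component it was -0.83 with an adjusted p of 0.116, and without the 2 arrays with high meningeal levels -0.81 with 0.0518.

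To compare globins within a mouse, each other probe was set against Hba-a1 on the same array, also after the values were seen. The log2 level of Hbb-b2 minus that of Hba-a1 was -4.13 ± 0.27 (SD) in 6 females and -4.79 ± 0.20 in 6 males. The ranges, -4.39 to -3.70 and -5.17 to -4.65, did not overlap, and the exact permutation p was 0.00216, the smallest that 924 splits of 6 against 6 can give. All 11 beta globin probes were lower relative to Hba-a1 in males, 9 of them with an exact p under 0.05. The sexes did not overlap for 4: Hbb-b2 (-0.66), Hbb-bt ILMN_1239117 (-0.31), Hbb-bt ILMN_1236718 (-0.29) and Hbb-bs ILMN_1244316 (-0.21).

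Alas2 went the other way, higher relative to Hba-a1 in males by 0.31 (exact p = 0.013), with overlap. The probes that did not pass were Hbb-bs ILMN_2544056 (-0.06, exact p = 0.537) and the dim Hbb-bt ILMN_1235372 (-0.12, exact p = 0.346). Of all 19703 other probes, 0.355% had an exact p under 0.05 with males lower, 5.88% with males higher, and 10 (0.0508%) did not overlap with males lower, 4 of which are the members just named. After adjustment over all probes 0 of them passed, and the adjusted p of Hbb-b2 was 0.757. The members share the swings of Hba-a1 from array to array, so the subtraction can make their spread smaller. It did not always do so: the SD of Hbb-b2 went from 0.441 to 0.268 in females but from 0.185 to 0.198 in males. All these differences rest on the 1 Hba-a1 probe. Within control or small-litter mice alone, 3 against 3, the smallest possible exact p is 0.1. Hbb-b2 minus Hba-a1 was lower in males by -0.94 in controls and by -0.38 in small-litter mice, without overlap in either. Every beta globin probe differed more in controls than in small-litter mice. For Hbb-bs ILMN_1255462 the difference was -0.703 in controls and -0.018 in small-litter mice, and for Hbb-bs ILMN_2544056 -0.137 and 0.014.

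**Figure D4:**
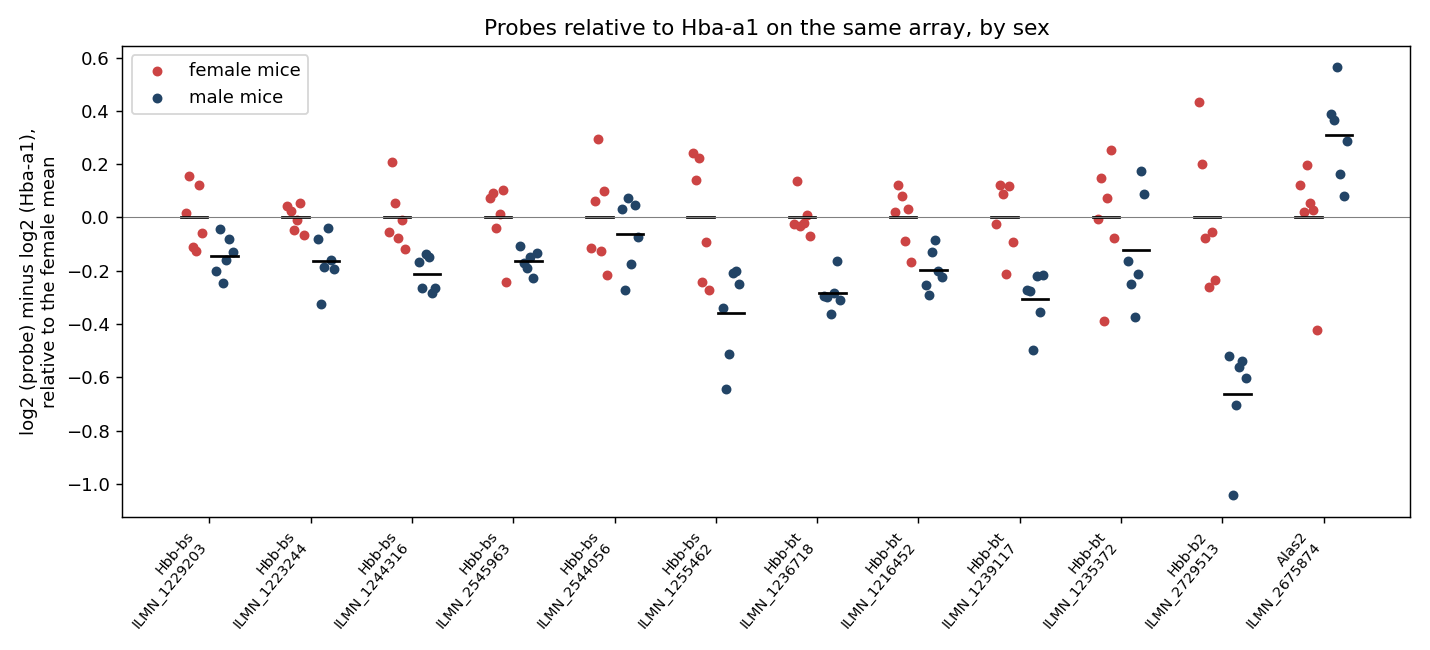
Log2 level of each of the other 12 probes minus that of Hba-a1 on the same array, shown relative to the mean of the 6 females for that probe, with 1 point per mouse and black lines for the means of each sex. The male mean lies at -0.66 for Hbb-b2, where the sexes do not overlap, and at 0.31 for Alas2, where they do.

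Neither the set nor any other heme or erythroid gene measured here passed the test in a litter comparison. Of 8 heme synthesis genes 7 were measured (12 probes), and 0 passed in any of the 6 comparisons, with medians of 0.04 in females and -0.01 in males for the litter effect. Of 14 genes of heme breakdown and transport 12 were measured (17 probes), with a median of 0.02 in both sexes. Hmox1, the heme oxygenase that opens the heme ring, was detected on 8 arrays and differed by -0.41 ± 0.20 in females and 0.41 ± 0.20 in males, neither past the test (adjusted limma p 1 and 0.429). Of 31 further erythroid genes 11 were measured (15 probes), with medians of -0.03 in females and 0.02 in males.

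In the sex comparison averaged over the litters, 0 of the 12 heme synthesis probes, 1 of the 17 of heme breakdown and transport and 2 of the 15 further erythroid probes passed, against 4.89% of all probes. Sptb (ILMN_1226636), which encodes the beta spectrin of the red cell skeleton and is also expressed in brain, was lower in males by -0.53 ± 0.09 (adjusted limma p 0.0123, and 0.0543 without the 2 arrays with high meningeal levels). Gypc (ILMN_1218358), a membrane glycoprotein, was higher in males by 0.49 ± 0.11 (adjusted p 0.0328, and lost when any of 4 of the 12 arrays was left out). The Gypc difference was only 0.142 in the authors' log2 values (adjusted limma p 0.0685) and 0.14 without background correction (0.0732). Tmem14c (ILMN_2849680), a mitochondrial carrier of heme precursors, was lower by -0.27 ± 0.07 (adjusted p 0.0495), and it lost the call when any of 11 of the 12 arrays was left out, with adjusted p up to 0.114. Sptb and Tmem14c had 3 measured probes each, of which 1 passed.

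Hbq1a, a theta globin gene of the alpha cluster, is named from the erythroid list. Its log2 levels were 5.87, 6.12 and 5.90 in female controls and 5.43, 5.48 and 5.57 in female small-litter mice, so the female groups did not overlap, as in 4.54% of all probes with small-litter females lower. The difference was -0.47 ± 0.14 (limma p 0.00591, adjusted 1) in females and 0.20 ± 0.14 in males. Over the 12 arrays its correlation with the mean level of the 5 genes was -0.06.

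Markers of vessel and covering cells were measured beside these values. Of 14 meningeal fibroblast markers 10 were measured (14 probes), and all 14 probes were lower in small-litter than in control females, with a median of -0.39 and none past the test. Their summed level ranged from 5592 to 16311 in female controls, 5874 to 6007 in female small-litter mice, 5007 to 16106 in male controls and 4594 to 9244 in male small-litter mice. Of 19 endothelial and mural markers 16 were measured (21 probes), with a median of -0.10 in females and -0.14 in males for the litter effect. Their summed level was 7339 to 9195, 7754 to 8403, 7588 to 8474 and 7198 to 7385 in the same order of groups. Choroid plexus markers (8 of 12 genes) summed to 1131 to 3895, 833 to 1330, 903 to 1515 and 1113 to 1548. The part of these cells in the globin differences was not tested.

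The genes whose levels ran most closely with the set were found by correlating each of 17056 other named probes with the mean centred log2 level of the 5 genes over 12 arrays. Myl12b, a regulatory light chain of non-muscle myosin, came first with r = 0.92, and r = 0.94 after group means were removed. It was followed by Acad10 (0.88), the splicing regulator Ptbp2 (0.85), Zfp599 (0.84), the laminin chain Lamc1 (0.84), the ribosomal protein gene Rpl27a (0.83), Afmid (0.82) and Snord123 (0.82). The 5 genes' own correlations with this mean were 0.71 to 0.96. These are the highest of many values over 12 arrays and are given with no test. Myl12b ranged from 10.17 to 10.64, a span of 0.47 on the log2 scale, against 0.89 for Hba-a1. The other probes named here were dim, with log2 levels between 4.38 (lowest of Acad10) and 6.72 (highest of Lamc1). Readings so close to the background say little about the genes whose names they carry.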

How the data were processed

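Per the labels, biotin-labelled RNA from 12 mice went onto Illumina bead arrays. The authors deposited, per the file headers, a table of mean bead intensity and detection p-value for 45281 probes on each array, neither background-subtracted nor normalized. They also deposited log2 values of 20791 probes, made with lumi per the submitters' processing notes (version not given in the sources used here). These had the same quantiles on every array (median 7.84) and followed their own array's log2 intensity with r of at least 0.99978. They were tried in place of the intensities.

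Gene names came from a table that covers the probes of the processed values: 18003 had 1 symbol, 6 several and 2782 none. Intensities were normalized with neqc (limma 3.58.1, R 4.3.3, offset 16), with negative controls inferred from the detection p-values. The 19704 measured probes (detection p below 0.01, 3 or more arrays) were fitted, each on its own, with a mean per group over all 12 arrays (lmFit and eBayes), and p-values were adjusted over all of them by Benjamini-Hochberg at 0.05. Tests were 2-sided. The limma step alone was tried on simulated data, for the litter effect in females and with probes that varied independently. The normalization, the correlations and the permutation tests were not tried in this way. Spearman correlations and the adjustment of the p-values of the correlations used scipy 1.17.1.

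The members, the gene lists and the tests were chosen with earlier results of these data known. The sex difference averaged over the litters and the differences from Hba-a1 were added after the values were seen. All probes that the gene table gave to the 5 genes are named. Other heme and erythroid genes are named from fixed lists, other cell types are given by counts and summed level, and the 8 probes most like the set are named by rank. The number of arrays limits the precision. The labels number mice as biological replicates, and same-numbered arrays did not deviate together (18 pairs, r from -0.11 to 0.09).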

Additional observations from a re-analysis of the deposited data

How the results depend on the processing

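For each comparison within a sex or within control mice, 317 values of the 13 probes were recomputed. Of these, 3 turned sign for the litter effect in females, 35 in males and 3 for the sex difference in controls. The number of arrays limits all of this, and the causes of the changes below were not tested. No probe passed in the litter effect in females under any alternative. In males 4 probes passed with a trend and robust eBayes, and 0 to 619 as each array was left out. Averaged over the sexes it was 0 to 1, and for the interaction 2 with an offset of 50, 2 with trend and robust eBayes, and 0 to 84 as each array was left out.

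The sex difference in controls counted 15 probes, against 35 in the authors' log2 values, 36 without background correction, 35 with an offset of 50, 24 with median scaling, 1 when detection on all 12 arrays was asked, 9 with 1 probe per gene, 48 with trend and robust eBayes and 9 with the compared arrays alone in the fit. Averaged over the litters it counted 964, against 1603, 1616, 1537 and 594 in the first 4 of these, 631 with 1 probe per gene, 1753 with trend and robust eBayes, 2156 with array weights and 495 with the replicate number as a block. It was 248 (without female control 3) to 1896 (without male small litter 1) as each array was left out, and moved by over 1.5 times for 10 of the 12. Without the 2 arrays apart on the first component, which leaves 1 male small-litter array assumed to vary like the others, it was 25, and without the 2 arrays with high meningeal levels 145. The replicate block, whose numbers do not pair the mice, changed no call of a member. Hbb-b2 in controls also passed in the authors' values (-0.94, adjusted limma p 0.0218), without background correction (-0.94, 0.0161), with median scaling (-1.10, 0.0369) and with trend and robust eBayes (-1.14, 0.00963). Over all its alternatives the adjusted p ran from 0.00589 to 0.22. Hbb-bs ILMN_1255462 passed in controls with an offset of 50 (-0.88, 0.0406). Averaged over the litters it passed in the authors' values (0.0328), without background correction (0.0289), with an offset of 50 (0.0255), with detection on all 12 arrays (0.0497) and with array weights (0.0346). There Hbb-bt ILMN_1236718 passed without background correction (0.0484) and with an offset of 50 (0.0435), and Hbb-bt ILMN_1239117 with an offset of 50 (0.0483).

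Signs turned as follows. For the litter effect in females, Hbb-bt ILMN_1235372 gave 0.016 with array weights and -0.22 to 0.14 as each array was left out. In males the ranges over left-out arrays were -0.31 to 0.10 for Hba-a1, -0.29 to 0.20 for Hbb-bs ILMN_1229203, -0.19 to 0.11 for Hbb-bs ILMN_1223244, -0.34 to 0.02 for Hbb-bs ILMN_1244316, -0.30 to 0.074 for Hbb-bs ILMN_2545963, -0.27 to 0.088 for Hbb-bs ILMN_2544056, -0.23 to 0.18 for Hbb-bt ILMN_1236718, -0.27 to 0.14 for Hbb-bt ILMN_1216452, -0.18 to 0.22 for Hbb-bt ILMN_1239117 and -0.002 to 0.25 for Hbb-b2. Without the 2 arrays with high meningeal levels, males gave 0.10 for Hba-a1, 0.20 for ILMN_1229203, 0.015 for ILMN_1244316, 0.075 for ILMN_2545963 and 0.12 for ILMN_1216452. Without the 2 arrays apart on the first component they gave -0.11 for ILMN_1236718, -0.023 for ILMN_1239117 and -0.10 for ILMN_1235372. Median scaling gave -0.077 for ILMN_1223244, -0.068 for ILMN_1236718 and -0.10 for ILMN_1239117, and array weights -0.032 for ILMN_1223244 and -0.059 for ILMN_1239117. Averaged over the sexes, Hbb-bt ILMN_1235372 gave -0.016 to 0.18 over left-out arrays and -0.076 without the arrays apart on the first component, where its interaction was 0.048. The interaction ranged over left-out arrays from -0.34 to 0.093 for Hba-a1, -0.46 to 0.03 for ILMN_1229203, -0.38 to 0.002 for ILMN_2545963 and -0.35 to 0.15 for Alas2, which gave 0.001 with array weights. The sex difference in controls ranged from -0.38 to 0.052 for Hba-a1 and -0.10 to 0.40 for Alas2, and averaged over the litters from -0.21 to 0.005 for Hba-a1. Relative to Hba-a1, ILMN_1235372 gave 0.016 in the authors' values and without background correction, and ILMN_2544056 0.04 without the arrays with high meningeal levels.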
